A study of Mus musculus with 12 samples.

Results

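The cadherins and protocadherins described here were the protein-coding genes whose GENCODE M21 symbol was Cdh followed by a number, or began with Pcdh. Of 55401 gene identifiers in the count table, 92 met this rule. They were 23 numbered cadherins, 12 non-clustered protocadherins and 57 clustered protocadherins, the last made up of 14 Pcdha, 22 Pcdhb and 21 Pcdhg genes. Poly(A) RNA was sequenced from 12 primary cultures of the subventricular zone, the germinal layer along the lateral ventricles, of CD1 mice, which made up 3 groups of 4. Neurospheres from pups of postnatal day 0 to 2 gave the postnatal neural stem cell (NSC) libraries, and neurospheres from animals of 2 months gave the adult NSC libraries. Neurospheres grew for 6 to 7 days in medium with EGF (20 ng/mL) and FGF (10 ng/mL). Postnatal oligodendrocyte precursor cell (OPC) cultures were cells of primary neurospheres from pups of the same age, dissociated and grown as a monolayer for 2 days in PDGF-AA (10 ng/mL) and FGF (10 ng/mL). All 3 groups thus shared the strain, the tissue and a neurosphere step, and the labels name no genetic change and no sorting of cells. The 4 libraries of a group came from independent litters, per the labels.

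Cadherins are membrane proteins whose outer repeats bind calcium and join neighbouring cells. Classical cadherins (types I and II) bind like molecules on the next cell and are tied to actin through catenins. In the subventricular zone N-cadherin holds stem cells and ependymal cells in place. Protocadherins lack the catenin-binding tail. Non-clustered protocadherins (delta-1, delta-2 and others) have genes of their own and sort cells and axons, in part through the WAVE complex that builds branched actin. Clustered protocadherins lie in 3 neighbouring gene arrays, from which a neuron uses a few alternative first exons, chosen with the help of CTCF, cohesin and DNA methylation, as a surface identity code. Each Pcdha and each Pcdhg first exon is spliced to constant exons that its whole family shares, while a Pcdhb gene is a single exon.

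Postnatal NSC libraries held 38928989 to 54801726 counts, adult NSC libraries 16756231 to 20064043, and OPC libraries 17226501 to 23651396. A level is a CPM value (counts for each 1e+06 counts, after TMM scaling), and a change is a log2 fold change ± SE from edgeR's quasi-likelihood test with Benjamini-Hochberg adjustment over 16135 genes, with n = 4 per group throughout. A change is called at an adjusted p under 0.05. The 8 oligodendrocyte precursor markers were all at 1 CPM or more in each group, and their summed level ranged over 6050 to 6410 CPM (postnatal NSC), 5091 to 5403 (adult NSC) and 10142 to 14805 (OPC). Pdgfra, the receptor for PDGF-AA, was at 230.0 ± 59.6 CPM in postnatal NSC, 12.2 ± 2.98 in adult NSC and 1433 ± 710.2 in OPC, so its RNA was present in postnatal neurospheres too. Of the 8 markers, 5 were called higher and none lower in OPC against postnatal NSC, and 5 were lower and none higher in adult against postnatal NSC. Over all genes, 22.4% were called higher and 22.7% lower in the former comparison, and 25.2% and 27.9% in the latter. These shares apply to the marker counts that follow. Neuroblast and neuron markers (8 genes) summed to 71.5 to 205 CPM (postnatal NSC), 39.7 to 52.2 (adult NSC) and 128 to 311 (OPC). Of 7 tested, 4 were higher and 2 lower in OPC than in postnatal NSC, and 1 was higher and 4 lower in adult NSC. Ependymal markers (6 genes) summed to 39.04 to 51.2 CPM, 22.2 to 24.5 and 9.46 to 17 in the same order, with 4 of 4 tested called lower in OPC than in postnatal NSC. Of 8 neural stem cell markers 2 were higher and 4 lower in OPC than in postnatal NSC, and of 3 tested pericyte and fibroblast markers 2 were lower. In cultures of mixed cells, a lower level can mean fewer cells of a type or less RNA per cell, and the measurements do not tell these apart. A pair of libraries stood apart: G1/S genes, which copy DNA, were at a mean log2(CPM + 1) of 5.12 for postnatal NSC 3 and 4.68 for OPC 2, while the 10 remaining libraries ran from 6.19 to 6.92. Results that rest on these libraries are given with and without them. The part of culture make-up in the differences below was not tested.

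Of the 92 members, 72 had enough counts to be tested: 11 numbered cadherins, 11 non-clustered protocadherins and 50 clustered ones. The 20 others held 0 to 140 counts over all 12 libraries. Among them were Cdh5, the VE-cadherin of blood vessels, with 19 counts, and Cdh15, the M-cadherin of muscle, with 33. Per library, Cdh5 was at 0.397, 0.0351, 0 and 0 CPM in postnatal NSC 1 to 4, 0, 0, 0.0563 and 0 in adult NSC 1 to 4, and 0, 0, 0 and 0 in postnatal OPC 1 to 4. Of its 19 counts, most came from postnatal NSC 1. Cdh15 was at 0.149, 0.175, 0.175 and 0.0994 CPM in postnatal NSC 1 to 4, 0.109, 0, 0 and 0 in adult NSC 1 to 4, and 0.0484, 0.0815, 0.0576 and 0 in postnatal OPC 1 to 4. It was under 0.2 CPM in every library. Of 8 endothelial markers, Pecam1, Tek, Tie1, Cldn5, Emcn and Esam were under 1 CPM in every group, while Kdr was at 3.30 ± 0.698 CPM in postnatal NSC, 2.45 ± 0.194 in adult NSC and 2.27 ± 0.779 in OPC and Flt1 at 7.24 ± 4.88 CPM in postnatal NSC, 12.1 ± 0.417 in adult NSC and 0.296 ± 0.211 in OPC. The list summed to 4.88 to 16.1 CPM (postnatal NSC), 14.97 to 16.8 (adult NSC) and 2.42 to 3.63 (OPC), with Flt1 called lower in OPC than in postnatal NSC (-4.66 ± 0.86, adjusted p = 9.38e-04). Cdh16, a kidney cadherin, had 0 counts, which at 3 counts of 329483575 allows up to 0.00911 CPM. The remaining untested cadherins were Cdh3, Cdh7, Cdh8, Cdh9, Cdh12, Cdh17, Cdh18, Cdh23 and Cdh26. The untested protocadherins were Pcdh12, Pcdha1, Pcdha2, Pcdha3, Pcdha4, Pcdha6, Pcdha8 and Pcdhb1.

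Levels per length, in CPM per 1000 bases of exon, placed Pcdhgc3 first in each group, with 105 ± 4.99 in postnatal NSC, 83.7 ± 1.87 in adult NSC and 104 ± 5.53 in OPC. Cdh2, which encodes N-cadherin, came next at 32.8 ± 2.18, 39.8 ± 1.46 and 33.2 ± 2.64 CPM per 1000 bases. In postnatal NSC the following members were Cdh20 (21.4 ± 5.96), Cdh4 (20.96 ± 5.57) and Pcdh10 (16.9 ± 3.93), whose SDs overlapped. In adult NSC they were Cdh20 (29.8 ± 0.808), Cdh13 (19.1 ± 1.46) and Cdh4 (18.7 ± 2.25), of which the last pair overlapped. In OPC, Pcdh10 (26.9 ± 3.19) came after Cdh2, above Cdh20 (17.3 ± 5.602), Pcdh9 (15.7 ± 1.92) and Cdh4 (15.4 ± 4.51), which did not differ beyond their spread. The make-up of the family thus differed by group. Delta-1 and delta-2 protocadherins together with Pcdhb genes took 6.12%, 7.85% and 5.63% of the summed level per length of all 92 members in postnatal NSC. The same classes took 6.98%, 4.16% and 4.06% in adult NSC, and 10.7%, 10.96% and 11.1% in OPC.

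Compared with postnatal NSC, 33 of the 72 tested members were higher in OPC and 4 were lower, where 22.4% of all genes tested were called higher and 22.7% lower, 45.1% in all. Their median log2 fold change was 0.48, against -0.01 over all genes. Compared with postnatal NSC, 6 members were higher in adult NSC and 38 were lower (background 25.2% and 27.9%, 53.1% in all), with a median of -0.53 against -0.03 over all genes. Against adult NSC, 52 members were higher in OPC and 9 were lower (background 26.3% and 24.7%, 51.0% in all), with a median of 1.03 against 0.01. The comparisons share groups and are not independent of each other. Without postnatal NSC 3 and OPC 2 the counts were 32 higher and 7 lower in OPC than in postnatal NSC, 7 and 35 in adult than in postnatal NSC, and 53 and 10 in OPC than in adult NSC. Without both, Cdh4, Cdh13, Cdh22 and Pcdhac2 were called lower in OPC than in postnatal NSC, and Pcdhga11 was no longer.

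The numbered cadherins changed in both directions. In OPC against postnatal NSC, 3 of 11 cadherins were higher (Cdh6, Cdh10, Cdh11) and 1 was lower (Cdh24). In adult against postnatal NSC, 4 were higher (Cdh2, Cdh6, Cdh13, Cdh19) and 2 lower (Cdh1, Cdh24). Of the lower, Cdh1 had enough counts to be tested only through libraries of the postnatal groups. In OPC against adult NSC, 3 were higher (Cdh10, Cdh11, Cdh24) and 5 lower (Cdh2, Cdh13, Cdh19, Cdh20, Cdh22). The background shares given above, 22.4% to 27.9% per direction, apply to each of these counts. With postnatal NSC 3 and OPC 2 left out, 3 were higher and 4 lower in the first of these comparisons, and the other counts were 4 and 2, and 3 and 5, of 10 tested, with Cdh4 among the lower in adult NSC and Cdh1 not tested. The plot of levels by library gives the values behind these counts.

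**Figure D1:**
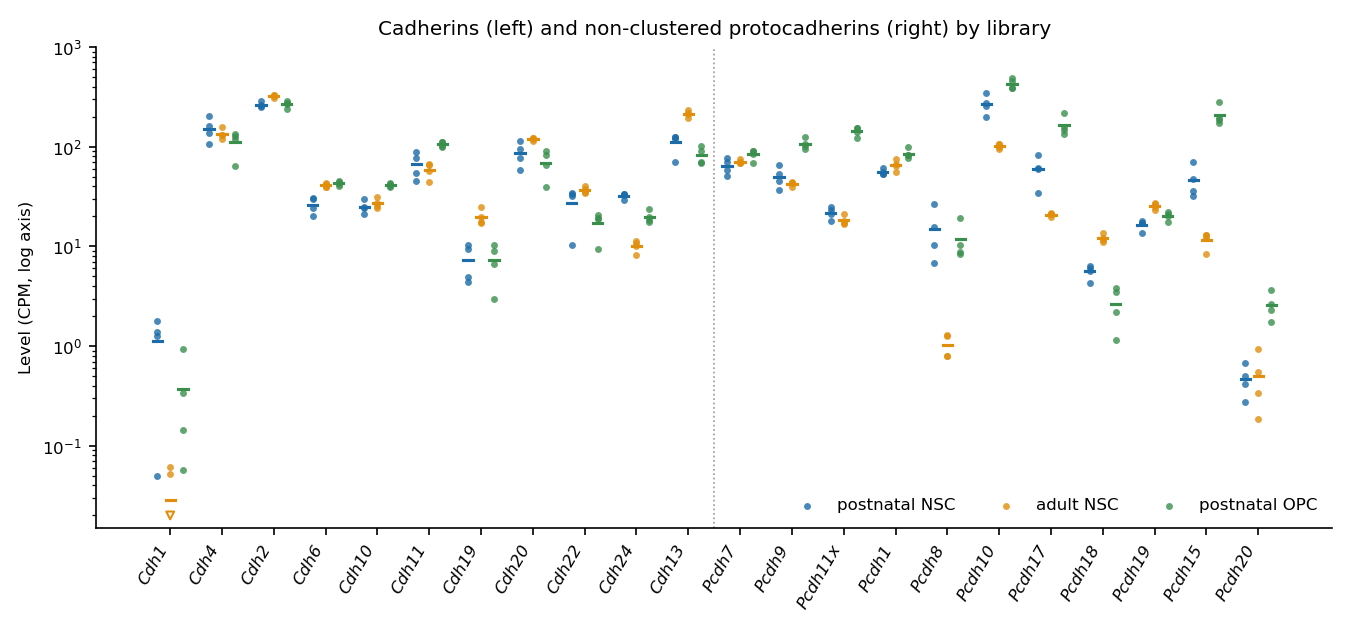
Level of the 11 tested numbered cadherins and 11 tested non-clustered protocadherins in each library, in CPM on a log axis. Points are libraries, bars are means of 4 libraries, and an open triangle marks libraries with 0 counts. Cdh2 differs by a small step across the groups, while Pcdh15 and Pcdh11x stand above both neurosphere groups in all 4 OPC libraries.

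Type I cadherins were led by Cdh2 and Cdh4. Cdh2 was at 289.9, 249.9, 261 and 257 CPM in postnatal NSC 1 to 4, 329.8, 329, 305 and 319.8 in adult NSC 1 to 4, and 267, 239, 289.7 and 276 in postnatal OPC 1 to 4. All 4 adult libraries lay above the 8 postnatal ones, by a small step: the log2 fold change of adult against postnatal NSC was 0.28 ± 0.08 (adjusted p = 0.0103). This call was lost at 0.21 without postnatal NSC 2 and 0.22 without postnatal NSC 4. OPC and postnatal NSC overlapped in Cdh2 (0.02 ± 0.08, adjusted p = 0.864), and OPC was below adult NSC (-0.26 ± 0.08, adjusted p = 0.0151). Cdh4, which encodes R-cadherin of neural and retinal tissue, was at 203, 138, 107 and 161 CPM in postnatal NSC 1 to 4, 121, 131, 159 and 132 in adult NSC 1 to 4, and 119.5, 63.5, 135 and 129 in postnatal OPC 1 to 4. Its groups overlapped and no comparison passed the test, with -0.45 ± 0.23 (adjusted p = 0.131) in OPC against postnatal NSC. Without postnatal NSC 3 this was -0.59 (adjusted p = 0.0462), which passed. Cdh1, the E-cadherin of epithelia, was at 1.27, 1.39, 1.80 and 0.0497 CPM in postnatal NSC 1 to 4, 0, 0.0520, 0 and 0.0617 in adult NSC 1 to 4, and 0.339, 0.938, 0.0576 and 0.144 in postnatal OPC 1 to 4. It was above 1 CPM in postnatal NSC 1, 2 and 3 and under 0.1 CPM in postnatal NSC 4 and all of adult NSC. Adult NSC held 2 counts against 204 in postnatal NSC, a 44.0-fold ratio per total count with a 95% exact (Clopper-Pearson) interval of 12.0 to 366 for counting error only (edgeR adjusted p = 0.00519). Cdh1 had enough counts to be tested only through postnatal NSC 1, 2 and 3 and OPC 2. Its call as lower in adult NSC is therefore not independent of that selection. Without postnatal NSC 3 and OPC 2 it had too few counts to be tested. In OPC against postnatal NSC its log2 fold change of -1.53 ± 0.82 (adjusted p = 0.145) did not pass, but did at -1.96 without postnatal NSC 4 and -2.61 without postnatal OPC 2. OPC held 34 counts, 15.3 times the adult share (95% interval 3.93 to 132), and OPC against adult NSC did not pass (3.59 ± 1.44, adjusted p = 0.0541) but did at 3.59 without postnatal NSC 4, 3.91 without postnatal OPC 3 and 3.85 without postnatal OPC 4. It also passed with no low-count filter, a replicate block, equal depth or a Y-linked covariate, at 3.57 to 3.89. In DESeq2 it passed at 3.75 (adjusted p = 0.0179). The call thus differed in 8 of 18 alternatives.

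Type II cadherins fell into patterns of their own. Cdh11, known from mesenchyme and developing brain, was at 54.9, 77.8, 89.03 and 45.6 CPM in postnatal NSC 1 to 4, 65.9, 67.3, 44.3 and 57.3 in adult NSC 1 to 4, and 110.2, 110.2, 101 and 100.2 in postnatal OPC 1 to 4. All OPC libraries were above the neurosphere libraries, with 0.66 ± 0.19 (adjusted p = 0.014) against postnatal NSC and 0.84 ± 0.19 (adjusted p = 0.00304) against adult NSC. The former call was lost without postnatal NSC 1, at 0.55 (adjusted p = 0.0525). Cdh10 rose in the same direction (25.02 ± 3.54 CPM in postnatal NSC, 27.1 ± 2.87 in adult NSC and 41.3 ± 2.06 in OPC), with 0.72 ± 0.11 (adjusted p = 3.02e-04) against postnatal NSC. Cdh6, a marker of brain boundaries in development, was higher in adult NSC and in OPC than in postnatal NSC (26.2 ± 4.98 CPM in postnatal NSC, 41.2 ± 1.997 in adult NSC and 42.98 ± 2.14 in OPC). Its log2 fold changes were 0.65 ± 0.12 (adjusted p = 9.62e-04) and 0.71 ± 0.12 (adjusted p = 5.86e-04), and OPC did not differ from adult NSC by the test (0.06 ± 0.12, adjusted p = 0.709).

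Cdh24 was the cadherin that fell in both comparisons with postnatal NSC. Its level was 33.8, 32.5, 28.97 and 33.2 CPM in postnatal NSC 1 to 4, 10.1, 10.9, 8.22 and 11.3 in adult NSC 1 to 4, and 23.9, 18.2, 17.5 and 19.5 in postnatal OPC 1 to 4. The 3 groups did not overlap, with postnatal NSC on top and adult NSC lowest. Its log2 fold change was -0.70 ± 0.13 (adjusted p = 8.42e-04) in OPC and -1.66 ± 0.13 (adjusted p = 3.12e-06) in adult NSC. Cdh19, a type II cadherin found in glial precursors of peripheral nerve, was at 9.46, 4.95, 4.36 and 10.2 CPM in postnatal NSC 1 to 4, 25.05, 19.8, 17.7 and 17.1 in adult NSC 1 to 4, and 6.68, 2.94, 10.3 and 9.08 in postnatal OPC 1 to 4. Adult libraries were all above the others (1.46 ± 0.36, adjusted p = 0.00515 against postnatal NSC), and OPC fell below adult NSC by 1.46 ± 0.37 (adjusted p = 0.00538) on the log2 scale. Cdh20 was at 85.9 ± 23.9 CPM in postnatal NSC, 119 ± 3.24 in adult NSC and 69.2 ± 22.5 in OPC and passed only in OPC against adult NSC (-0.79 ± 0.24, adjusted p = 0.0146). Without OPC 2, which enters through the shared filter, scaling and estimate of spread, its adult against postnatal value of 0.48 became 0.44 (adjusted p = 0.0411) and passed. Cdh22 was at 34.3, 32.2, 10.3 and 33.3 CPM in postnatal NSC 1 to 4, 37.3, 35.02, 34.3 and 40.03 in adult NSC 1 to 4, and 20.4, 9.46, 19.4 and 18.8 in postnatal OPC 1 to 4. One library in each postnatal group, the same pair that was low in G1/S genes, was far below its group. OPC was below adult NSC (-1.11 ± 0.33, adjusted p = 0.0141), and OPC against postnatal NSC was -0.70 ± 0.33 (adjusted p = 0.101), or -0.97 (adjusted p = 0.00218) without postnatal NSC 3.

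Cdh13 encodes T-cadherin, which is held in the membrane by a lipid anchor and binds adiponectin. Its level was 126, 119, 70.02 and 126 CPM in postnatal NSC 1 to 4, 217, 215, 194 and 234 in adult NSC 1 to 4, and 102, 90.4, 68.99 and 69.6 in postnatal OPC 1 to 4. Every adult library was above all 8 postnatal ones, and postnatal NSC 3 was far below its group. In adult against postnatal NSC the log2 fold change was 0.96 ± 0.18 (adjusted p = 0.00102), a 1.95-fold rise, and in OPC against adult NSC it was -1.38 ± 0.18 (adjusted p = 6.90e-05). OPC against postnatal NSC did not pass (-0.41 ± 0.18, adjusted p = 0.0808), and passed at -0.58 without postnatal NSC 3 and -0.56 without postnatal OPC 1.

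The non-clustered protocadherins were mostly higher in OPC. In OPC against postnatal NSC, 9 of 11 tested members were higher, 1 was lower (Pcdh18) and 1 did not pass (Pcdh8), and 5 of the 9 rose by at least 1 on the log2 scale, where 6.98% of all genes did. In OPC against adult NSC, 8 were higher, 2 lower (Pcdh18, Pcdh19) and Pcdh7 did not pass. For adult against postnatal NSC, 2 were higher (Pcdh18, Pcdh19) and 4 lower (Pcdh8, Pcdh10, Pcdh15, Pcdh17). Over all genes, 22.4% were called higher and 22.7% lower in the first comparison, and 26.3% and 24.7% in the second. In the third the shares were 25.2% and 27.9%. With postnatal NSC 3 and OPC 2 left out the member counts were 9 and 1, 9 and 2, and 2 and 4. For the 7 members higher in OPC than in both neurosphere groups, the 250 bases before the start site were looked up in RefSeq (GRCm38.p6). Entries were found for Pcdh9, Pcdh10, Pcdh15, Pcdh17 and Pcdh20, and Pcdh11x and Pcdh1 are named only. The windows of the 4 whose values in every library follow are shown, since all were called higher in OPC than in both neurosphere groups. Capitals mark any match, on either strand, to the E-box CAGCTG, the SOX-type word ACAAAG, the GC box GGGCGG, the CCAAT box or the TATA box TATAAA.
Pcdh10 (chr3:45378148-45378397, plus strand): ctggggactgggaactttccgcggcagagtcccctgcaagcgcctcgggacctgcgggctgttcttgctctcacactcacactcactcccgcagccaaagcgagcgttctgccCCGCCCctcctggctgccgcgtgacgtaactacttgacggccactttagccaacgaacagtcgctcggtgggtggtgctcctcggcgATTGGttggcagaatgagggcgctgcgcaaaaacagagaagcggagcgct
Pcdh17 (chr14:84443313-84443562, plus strand): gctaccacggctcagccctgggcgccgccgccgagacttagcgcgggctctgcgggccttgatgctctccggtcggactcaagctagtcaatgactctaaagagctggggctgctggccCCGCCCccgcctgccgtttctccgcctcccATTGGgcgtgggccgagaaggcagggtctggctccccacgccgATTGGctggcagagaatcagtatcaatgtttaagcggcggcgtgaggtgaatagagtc
Pcdh15 (chr10:73821617-73821866, plus strand): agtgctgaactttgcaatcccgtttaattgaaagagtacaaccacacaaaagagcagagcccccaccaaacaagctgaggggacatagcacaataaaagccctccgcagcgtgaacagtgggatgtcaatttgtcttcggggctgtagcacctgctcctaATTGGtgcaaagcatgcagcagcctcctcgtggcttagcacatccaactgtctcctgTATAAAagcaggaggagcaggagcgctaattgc
Pcdh9 (chr14:93890680-93890929, minus strand): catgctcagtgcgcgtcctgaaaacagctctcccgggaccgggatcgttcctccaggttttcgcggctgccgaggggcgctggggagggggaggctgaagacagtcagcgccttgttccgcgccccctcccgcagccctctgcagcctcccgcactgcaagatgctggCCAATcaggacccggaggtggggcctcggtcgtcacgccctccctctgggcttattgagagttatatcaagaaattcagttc

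The words in capitals were a CCAAT box, in some read in reverse as ATTGG, in all 4 windows and also in that of Pcdh20, where 33.8% of 32851 windows of 250 bases hold one. A GC box, read here as CCGCCC, was present in those of Pcdh10 and Pcdh17 (32.7% of windows hold one on either strand). A TATA box was present in that of Pcdh15 alone (12.4% of windows). The E-box CAGCTG (13.0%) and the SOX-type word ACAAAG (16.5%) were in none of the 5. The CCAAT and TATA boxes were added after the sequences were seen, and the matches are a description of these windows. The Pcdh15 window precedes a start 722525 bases inside the GENCODE gene model, whose exons reach further upstream.

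Among delta-1 protocadherins, Pcdh11x had the largest rise. This X-linked gene encodes an adhesion protein of brain and was at 21.1, 18.04, 24.6 and 23.1 CPM in postnatal NSC 1 to 4, 17.9, 17.3, 21.2 and 16.9 in adult NSC 1 to 4, and 155, 156, 122 and 142 in postnatal OPC 1 to 4. All OPC libraries were at least 122 CPM and all 8 neurosphere libraries at most 24.6. The log2 fold change was 2.73 ± 0.12 (adjusted p = 1.47e-07) against postnatal NSC, a 6.62-fold rise, and 2.97 ± 0.13 (adjusted p = 9.97e-09) against adult NSC. The groups differ in how many libraries carry Y-linked RNA, and with the Y-linked level as a covariate the first value was 2.71 (adjusted p = 2.62e-06). Pcdh9 was at 53.7, 44.8, 65.1 and 36.8 CPM in postnatal NSC 1 to 4, 42.9, 44.5, 39.2 and 42.99 in adult NSC 1 to 4, and 100.4, 125, 94.7 and 107 in postnatal OPC 1 to 4. OPC again stood above all neurosphere libraries, with 1.09 ± 0.15 (adjusted p = 1.39e-04) and 1.33 ± 0.15 (adjusted p = 2.19e-05) against postnatal and adult NSC.

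The other delta-1 members changed less. Pcdh1 was at 55.9 ± 3.99 CPM in postnatal NSC, 66.03 ± 8.17 in adult NSC and 85.1 ± 9.22 in OPC, and was higher in OPC than in postnatal NSC (0.60 ± 0.10, adjusted p = 6.29e-04) and adult NSC (0.37 ± 0.10, adjusted p = 0.0117). Pcdh7, also named NF-protocadherin, was at 70.3, 57.9, 77.8 and 50.6 CPM in postnatal NSC 1 to 4, 69.7, 68.7, 74.4 and 69.02 in adult NSC 1 to 4, and 90.4, 68.7, 85.4 and 90.6 in postnatal OPC 1 to 4. OPC and postnatal NSC overlapped, since postnatal NSC 3 exceeded OPC 2. The log2 fold change of 0.38 ± 0.13 (adjusted p = 0.0288) passed the test but was lost at 0.25 to 0.38 with any one left out of postnatal NSC 2 or 4, or OPC 1, 3 or 4. In OPC against adult NSC it did not pass, but did without OPC 2, at 0.34 (adjusted p = 0.0458), or without OPC 2 and postnatal NSC 3. None of the 4 delta-1 genes passed in adult against postnatal NSC, where the values ran from -0.25 to 0.24. There Pcdh11x passed at -0.36 without postnatal NSC 2, Pcdh9 at -0.41 without postnatal NSC 4 and Pcdh1 at 0.32 without adult NSC 3.

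All 5 delta-2 protocadherins tested differed between the neurosphere groups, 3 lower and 2 higher in adult NSC. Over all genes, 27.9% were called lower and 25.2% higher in that comparison, 53.1% in all. Pcdh10, which binds the WAVE complex and guides axons and migrating cells, was at 254, 272, 349 and 198 CPM in postnatal NSC 1 to 4, 99.04, 107, 106 and 94.6 in adult NSC 1 to 4, and 456, 485, 386 and 384 in postnatal OPC 1 to 4. The 3 groups did not overlap, with OPC highest and adult NSC lowest. Its log2 fold changes were 0.67 ± 0.15 (adjusted p = 0.00268) for OPC and -1.40 ± 0.15 (adjusted p = 2.65e-05) for adult NSC against postnatal NSC, and 2.07 ± 0.15 (adjusted p = 6.95e-07) for OPC against adult NSC. Pcdh17, another WAVE partner, was at 59.9, 61.8, 83.4 and 34.6 CPM in postnatal NSC 1 to 4, 21.2, 21.05, 21.6 and 19.6 in adult NSC 1 to 4, and 156, 219.9, 147 and 134 in postnatal OPC 1 to 4. The order was the same, and the spread in postnatal NSC was wide, with postnatal NSC 3 highest. OPC was 2.74-fold above postnatal NSC (1.46 ± 0.22, adjusted p = 2.66e-04), and adult NSC was 2.87-fold below it (-1.52 ± 0.23, adjusted p = 2.31e-04).

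Pcdh8, known as arcadlin at synapses and PAPC in the early embryo, separated adult from postnatal cultures. It was at 10.4, 15.8, 26.5 and 6.81 CPM in postnatal NSC 1 to 4, 1.26, 1.30, 0.788 and 0.802 in adult NSC 1 to 4, and 10.4, 19.3, 8.88 and 8.36 in postnatal OPC 1 to 4. All adult libraries were at 1.30 CPM or less, while both postnatal groups were at 6.81 or more and overlapped each other. The log2 fold change was -3.83 ± 0.46 (adjusted p = 6.14e-05) in adult against postnatal NSC, 3.49 ± 0.46 (adjusted p = 6.16e-05) in OPC against adult NSC and -0.34 ± 0.38 (adjusted p = 0.49) in OPC against postnatal NSC. Pcdh18 ran the other way, at 6.41, 4.25, 5.71 and 6.14 CPM in postnatal NSC 1 to 4, 13.8, 11.02, 12.3 and 11.7 in adult NSC 1 to 4, and 3.49, 1.14, 2.19 and 3.84 in postnatal OPC 1 to 4. It was highest in adult NSC and lowest in OPC with no overlap of groups, at 1.11 ± 0.29 (adjusted p = 0.00622) for adult NSC and -1.08 ± 0.30 (adjusted p = 0.0104) for OPC against postnatal NSC. Pcdh19, the X-linked gene of a female-limited epilepsy, was at 17.1, 17, 17.8 and 13.7 CPM in postnatal NSC 1 to 4, 27.3, 26.7, 23.2 and 25.1 in adult NSC 1 to 4, and 21.3, 20.1, 17.5 and 22.05 in postnatal OPC 1 to 4. Adult libraries were above all others (0.64 ± 0.11, adjusted p = 6.22e-04 against postnatal NSC). Its small rise in OPC against postnatal NSC (0.30 ± 0.11, adjusted p = 0.0427) was lost at 0.19 to 0.30 with any one left out of postnatal NSC 1, 2 or 4, adult NSC 1, 2 or 4, or OPC 1, 2 or 4. Its fall in OPC against adult NSC (-0.34 ± 0.11, adjusted p = 0.0234) was lost at -0.31 without adult NSC 1, -0.32 without adult NSC 2 and -0.28 without postnatal OPC 3.

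Pcdh15, best known for the tip links of inner ear hair cells and much used as a marker of OPC in brain, was at 35.5, 47.7, 70.6 and 31.9 CPM in postnatal NSC 1 to 4, 12.9, 12.9, 12.1 and 8.45 in adult NSC 1 to 4, and 195, 279, 174 and 187 in postnatal OPC 1 to 4. The 3 groups did not overlap, and postnatal NSC 3 and OPC 2 were the highest of their groups. OPC was 4.50-fold above postnatal NSC (2.17 ± 0.25, adjusted p = 3.69e-05) and 17.98-fold above adult NSC (4.17 ± 0.27, adjusted p = 3.00e-07), and adult NSC was 4.0-fold below postnatal NSC (-2.0 ± 0.25, adjusted p = 8.57e-05). Without both libraries low in G1/S genes the first value was 2.26 (adjusted p = 1.55e-06). The order of the groups was that of Pdgfra, and the part of the OPC share of the cultures in it was not tested. Pcdh20 followed at a low level, 0.466 ± 0.164 CPM in postnatal NSC, 0.501 ± 0.325 in adult NSC and 2.59 ± 0.789 in OPC, with 2.46 ± 0.41 (adjusted p = 4.90e-04) in OPC against postnatal NSC. The plot of fold changes gives the 22 tested cadherins and non-clustered protocadherins side by side.

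**Figure D2:**
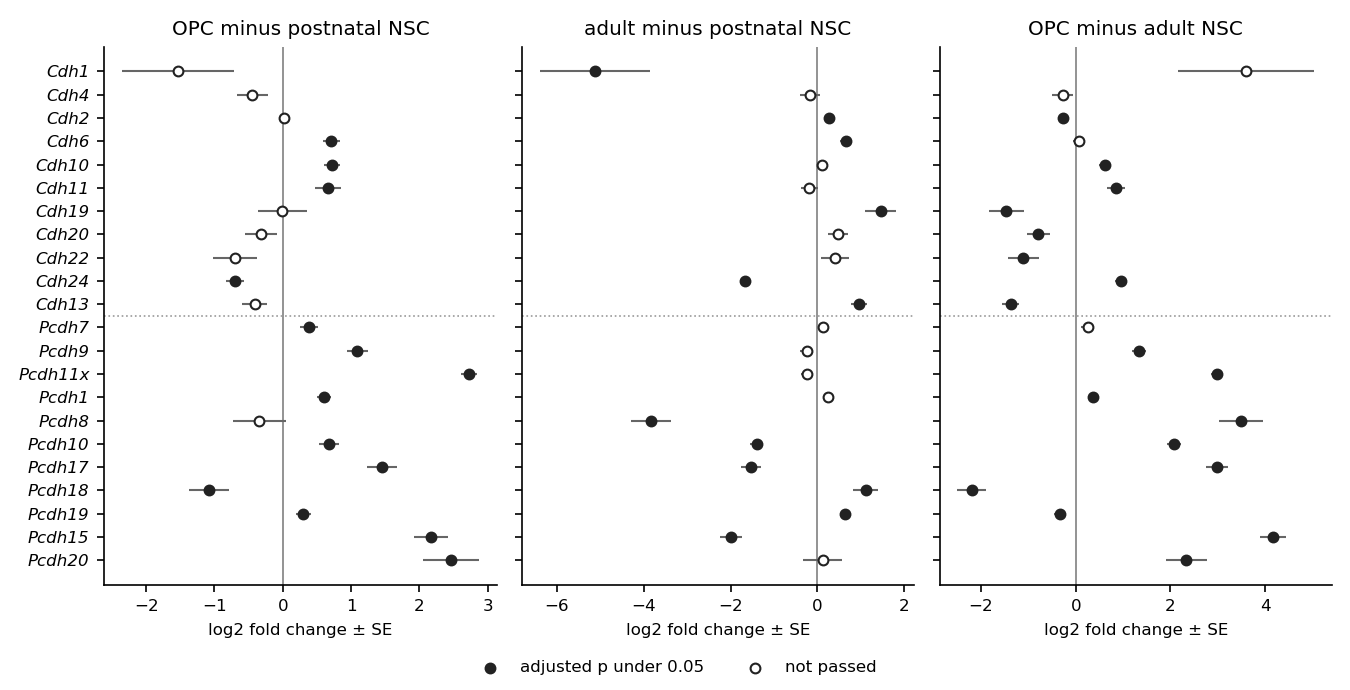
Log2 fold change ± SE of the same 22 genes in each comparison, from edgeR, with filled points for an adjusted p under 0.05 and open points for those that did not pass. The dotted line separates cadherins (above) from non-clustered protocadherins (below). In OPC minus postnatal NSC, 9 of 11 protocadherins are filled and to the right of 0, against 3 of 11 cadherins.

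The clustered protocadherins lie on chromosome 18, and their counts depend on how shared exons were handled. In the annotation a median of 46.4% of the exon bases of a Pcdha gene and 55.4% of those of a Pcdhg gene belong to that gene alone, against 100% for Pcdhb. The sources used here do not say how reads on shared exons, on near-identical Pcdhb copies or on opposite strands were counted. Pcdhga4 stood at 7.28 ± 1.28 CPM beside Pcdhgc3 at 575 ± 27.4 in postnatal NSC, so reads of the shared constant exons were not given in full to each Pcdhg gene. Single Pcdha and Pcdhg values are therefore uncertain in level. The plot in gene order gives the values of each family, and the difference between families was not tested.

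**Figure D3:**
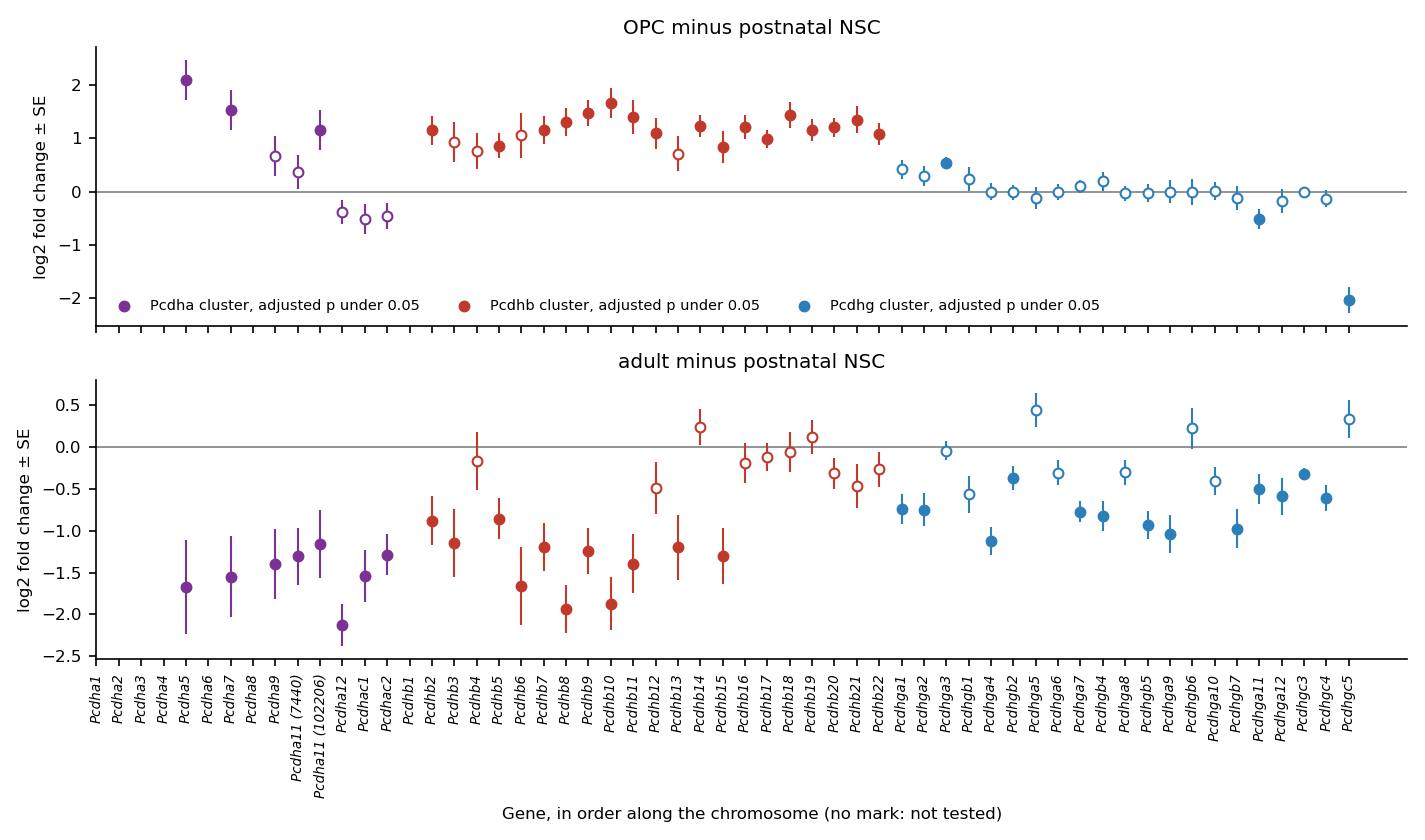
Log2 fold change ± SE of the clustered protocadherins in their order along the chromosome, OPC minus postnatal NSC above and adult minus postnatal NSC below. Filled points passed at an adjusted p under 0.05, open points did not, and genes without a mark were not tested. The number after Pcdha11 tells the gene models of that symbol apart by the end of their Ensembl identifier. All 21 Pcdhb points lie above 0 in the upper panel, and no clustered gene has a filled point above 0 in the lower panel.

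Most Pcdhb genes rose in OPC. Against postnatal NSC, 17 of 21 tested Pcdhb genes were higher and none was lower (22.4% and 22.7% of all genes). The values ran from 0.71 to 1.66, with a median of 1.16. Against adult NSC, 21 of 21 were higher (26.3% of all genes), with a median of 1.82. Without postnatal NSC 3 and OPC 2 the numbers were 16 and 20. The summed level of the 22 genes was 69.1, 76.9, 103 and 88.5 CPM in postnatal NSC 1 to 4, 72.8, 58.8, 53.9 and 53.05 in adult NSC 1 to 4, and 192, 262, 145 and 169.6 in postnatal OPC 1 to 4. OPC lay above every neurosphere library, at 2.28 ± 0.718 times the postnatal NSC mean, and postnatal NSC 3 and OPC 2 were the highest of their groups. Pcdhb10 was at 3.68, 3.86, 4.61 and 2.83 CPM in postnatal NSC 1 to 4, 0.764, 1.09, 1.18 and 1.049 in adult NSC 1 to 4, and 10.5, 20.2, 8.01 and 8.69 in postnatal OPC 1 to 4. It had the largest rise of the family (1.66 ± 0.28, adjusted p = 5.85e-04), and its OPC values were led by OPC 2. Pcdhb9 was at 1.37, 2.02, 1.40 and 1.32 CPM in postnatal NSC 1 to 4, 0.819, 0.468, 0.619 and 0.679 in adult NSC 1 to 4, and 5.57, 4.73, 3.69 and 3.07 in postnatal OPC 1 to 4. Pcdhb18 was at 4.84, 4.49, 7.76 and 4.08 CPM in postnatal NSC 1 to 4, 5.24, 5.04, 4.17 and 5.92 in adult NSC 1 to 4, and 13.99, 19.9, 10.5 and 13.02 in postnatal OPC 1 to 4. Both had every OPC library above the others, with 1.48 ± 0.25 (adjusted p = 5.00e-04) and 1.44 ± 0.24 (adjusted p = 4.70e-04) against postnatal NSC. Pcdhb3, Pcdhb4, Pcdhb6 and Pcdhb13 did not pass in that comparison, at 0.93, 0.76, 1.06 and 0.71. Of these, Pcdhb3 passed at 1.14 without postnatal NSC 3, 0.93 without adult NSC 4 and 1.10 without postnatal OPC 3, Pcdhb4 at 0.94 without postnatal OPC 3 and Pcdhb6 at 1.06 without adult NSC 1 and 1.28 without postnatal OPC 3. The call of Pcdhb15 was lost at 0.55 to 0.88 with any one left out of postnatal NSC 1, 2 or 3, adult NSC 1 or 2, or OPC 1, 2 or 4. In OPC against adult NSC the call of Pcdhb4 was lost at 0.49 to 0.99 with any one left out of postnatal NSC 1 or 2, adult NSC 2, 3 or 4, or OPC 1 or 2.

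Between adult and postnatal NSC the Pcdhb array changed unevenly along its length. Of the 12 tested genes from Pcdhb2 to Pcdhb13, 10 were lower, with a median of -1.20, and Pcdhb4 and Pcdhb12 did not pass. Of the 9 from Pcdhb14 to Pcdhb22, 1 was lower (Pcdhb15), with a median of -0.19. Over all genes, 27.9% were called lower in this comparison. In OPC against postnatal NSC the same stretches had medians of 1.12 and 1.20. The stretches were chosen after the values were seen, and the difference between them was not tested. Pcdhb8 was at 3.40, 4.51, 6.26 and 5.12 CPM in postnatal NSC 1 to 4, 1.64, 0.987, 1.07 and 1.36 in adult NSC 1 to 4, and 12.7, 17.3, 8.53 and 9.03 in postnatal OPC 1 to 4. Pcdhb6 was at 3.75, 2.81, 4.86 and 5.27 CPM in postnatal NSC 1 to 4, 2.40, 1.14, 0.957 and 0.740 in adult NSC 1 to 4, and 6.58, 17.2, 4.32 and 6.44 in postnatal OPC 1 to 4. Adult libraries lay below all others in both genes, with -1.93 ± 0.29 (adjusted p = 2.32e-04) and -1.66 ± 0.47 (adjusted p = 0.0103). Pcdhb10 fell by 1.87 ± 0.32 on the log2 scale (adjusted p = 5.19e-04). Pcdhb11 was at 2.36, 4.12, 4.26 and 5.59 CPM in postnatal NSC 1 to 4, 1.75, 1.92, 0.563 and 1.97 in adult NSC 1 to 4, and 12.9, 12.3, 8.18 and 9.80 in postnatal OPC 1 to 4. Adult NSC 3 was the lowest library for Pcdhb11, whose OPC against adult value was 2.80 ± 0.36 (adjusted p = 5.20e-05). The calls of Pcdhb2, Pcdhb3 and Pcdhb13 in adult NSC were lost when certain libraries were left out. The values were, for Pcdhb2, -0.87 to -0.67 with any one left out of postnatal NSC 3, or adult NSC 2, 3 or 4, for Pcdhb3, -0.94 without postnatal NSC 3, -0.98 without adult NSC 3 and -0.89 without adult NSC 4, and, for Pcdhb13, -0.98 without adult NSC 2 and -1.19 without adult NSC 3. At the other end, Pcdhb19 was at 9.27 ± 2.59 CPM in postnatal NSC, 10.1 ± 1.62 in adult NSC and 20.6 ± 4.03 in OPC and did not pass in adult against postnatal NSC (0.13 ± 0.20, adjusted p = 0.62).

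Pcdha genes were lower in adult NSC than in both postnatal groups. All 8 tested members fell in adult against postnatal NSC (27.9% of all genes did), with a median of -1.47. All 8 were higher in OPC than in adult NSC (26.3% of all genes were), with a median of 1.90. Among the 8, Pcdha5 and Pcdha7 had enough counts to be tested only through their OPC libraries. Their calls as higher in OPC are therefore not independent of that selection. The summed level of the 14 genes was 42.7, 44.6, 32.6 and 35.8 CPM in postnatal NSC 1 to 4, 16.4, 14.5, 13.00 and 14.6 in adult NSC 1 to 4, and 38.8, 32.98, 35.8 and 35.5 in postnatal OPC 1 to 4. Adult libraries held 13.0 to 16.4 CPM, under the 32.6 to 44.6 of postnatal NSC and the 33.0 to 38.8 of OPC, and the postnatal groups overlapped. Pcdhac2, a C-type member that is used without the choice of a first exon, made up 28.7% to 71.4% of this sum. It was at 28.7, 29.2, 17.1 and 24.1 CPM in postnatal NSC 1 to 4, 10.8, 10.4, 9.12 and 10.4 in adult NSC 1 to 4, and 22.02, 9.46, 20.98 and 19.7 in postnatal OPC 1 to 4. Postnatal NSC 3 and OPC 2 were the lowest of their groups. Its log2 fold change was -1.28 ± 0.24 (adjusted p = 0.00104) in adult and -0.46 ± 0.24 (adjusted p = 0.131) in OPC against postnatal NSC, the latter becoming -0.61 (adjusted p = 0.0444) without postnatal NSC 3. Without Pcdhac2, the summed OPC level was 1.26 ± 0.320 times that of postnatal NSC, against 0.920 ± 0.148 with it.

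Among alternative Pcdha exons, 3 gene models were called higher in OPC than in postnatal NSC and none lower (22.4% and 22.7% of all genes). Of these, Pcdha5 and Pcdha7 had enough counts to be tested only through their OPC libraries, so this count was partly set by that selection. Pcdha12 was at 5.22, 6.51, 6.01 and 4.08 CPM in postnatal NSC 1 to 4, 1.69, 1.04, 1.13 and 1.11 in adult NSC 1 to 4, and 3.97, 5.71, 3.75 and 3.22 in postnatal OPC 1 to 4. It had the deepest fall in adult NSC (-2.13 ± 0.25, adjusted p = 5.38e-05) and did not pass in OPC against postnatal NSC (-0.39 ± 0.23, adjusted p = 0.187), where it did at -0.61 without postnatal OPC 2. Its adult libraries were all below the others. Pcdha9 was at 1.56, 0.983, 1.85 and 0.919 CPM in postnatal NSC 1 to 4, 0.218, 0.831, 0.394 and 0.555 in adult NSC 1 to 4, and 1.501, 3.06, 1.44 and 2.40 in postnatal OPC 1 to 4, with -1.40 ± 0.42 (adjusted p = 0.0141) in adult against postnatal NSC. Pcdhac1 is, like Pcdhac2, a C-type member and not an alternative exon. Its level was 2.56, 2.81, 2.23 and 2.06 CPM in postnatal NSC 1 to 4, 0.546, 1.20, 1.13 and 0.432 in adult NSC 1 to 4, and 1.84, 1.51, 2.07 and 1.35 in postnatal OPC 1 to 4, with -1.54 ± 0.31 (adjusted p = 0.00154). Pcdha9 and Pcdhac1 both fell in adult NSC without overlap of the neurosphere groups. The rise of Pcdhac1 in OPC against adult NSC (1.02 ± 0.32, adjusted p = 0.0178) was lost at 0.86 without adult NSC 1 and 0.81 without adult NSC 4.

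Pcdha5 and Pcdha7 rose in OPC from low levels. Pcdha5 was at 0.348, 0.211, 0.175 and 0.199 CPM in postnatal NSC 1 to 4, 0.109, 0.0520, 0 and 0.123 in adult NSC 1 to 4, and 0.678, 1.26, 1.04 and 1.06 in postnatal OPC 1 to 4, with 2.10 ± 0.38 (adjusted p = 8.36e-04) in OPC against postnatal NSC. Pcdha7 was at 0.447, 0.544, 0.601 and 0.224 CPM in postnatal NSC 1 to 4, 0.218, 0.156, 0.169 and 0.0617 in adult NSC 1 to 4, and 0.968, 2.12, 1.33 and 0.865 in postnatal OPC 1 to 4, with 1.53 ± 0.38 (adjusted p = 0.00579). In both, each OPC library was above every neurosphere library, but these genes were tested only through their OPC libraries. The gene model of Pcdha11 with identifier ENSMUSG00000102206 also rose (1.15 ± 0.37, adjusted p = 0.0229), at 1.217, 1.33, 1.25 and 1.62 CPM in postnatal NSC 1 to 4, 1.20, 0.208, 0.338 and 0.679 in adult NSC 1 to 4, and 3.10, 3.67, 2.02 and 3.27 in postnatal OPC 1 to 4. Its call was lost at 1.02 to 1.12 with any one left out of postnatal NSC 1 or 2, or OPC 1, 2 or 4. The other model with the same symbol, ENSMUSG00000007440, lies next after Pcdha9 and did not pass (0.37 ± 0.31, adjusted p = 0.36). No member carries the symbol Pcdha10, so the models named Pcdha11 may not be the same gene.

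Their falls in adult NSC rest on few counts. That of Pcdha5 (-1.67 ± 0.56, adjusted p = 0.025) was lost at -1.54 without adult NSC 2 and -1.27 without adult NSC 3, and that of Pcdha7 (-1.55 ± 0.49, adjusted p = 0.0185) at -1.31 without adult NSC 4. For ENSMUSG00000102206 the fall (-1.16 ± 0.41, adjusted p = 0.0317) was lost at -1.21 to -0.86 with any one left out of postnatal NSC 4, or adult NSC 2, 3 or 4.

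The Pcdhg family gave 3 calls in OPC against postnatal NSC, where 45.1% of all genes were called. Pcdhga3 was higher, Pcdhgc5 and Pcdhga11 were lower, and 18 of 21 did not pass, with a family median of -0.01. In the neurosphere groups, adult against postnatal, 13 were lower and none was higher (27.9% and 25.2% of all genes), with a median of -0.57. With postnatal NSC 3 and OPC 2 left out that was 10 lower and 1 higher (Pcdhga5). The calls of Pcdhgb2, Pcdhga11 and Pcdhga12 were lost then, and also when single libraries were left out. The values for single libraries were, for Pcdhgb2, -0.41 to -0.24 with any one left out of postnatal NSC 2 or 3, adult NSC 1, 2, 3 or 4, or OPC 3 or 4, and for Pcdhga12 -0.61 to -0.44 with any one left out of postnatal NSC 2 or 3, adult NSC 2, 3 or 4, or OPC 3. In OPC against adult NSC, 12 were higher and 2 lower (Pcdhgc5, Pcdhga5), beside 26.3% and 24.7% of all genes. Summed over the 18 Pcdhga and Pcdhgb genes, the level was 206, 217, 269 and 184 CPM in postnatal NSC 1 to 4, 155, 153, 149 and 163 in adult NSC 1 to 4, and 226, 237, 229 and 196 in postnatal OPC 1 to 4. OPC and postnatal NSC overlapped, and adult libraries, at 149 to 163 CPM, were below both.

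**Figure D4:**
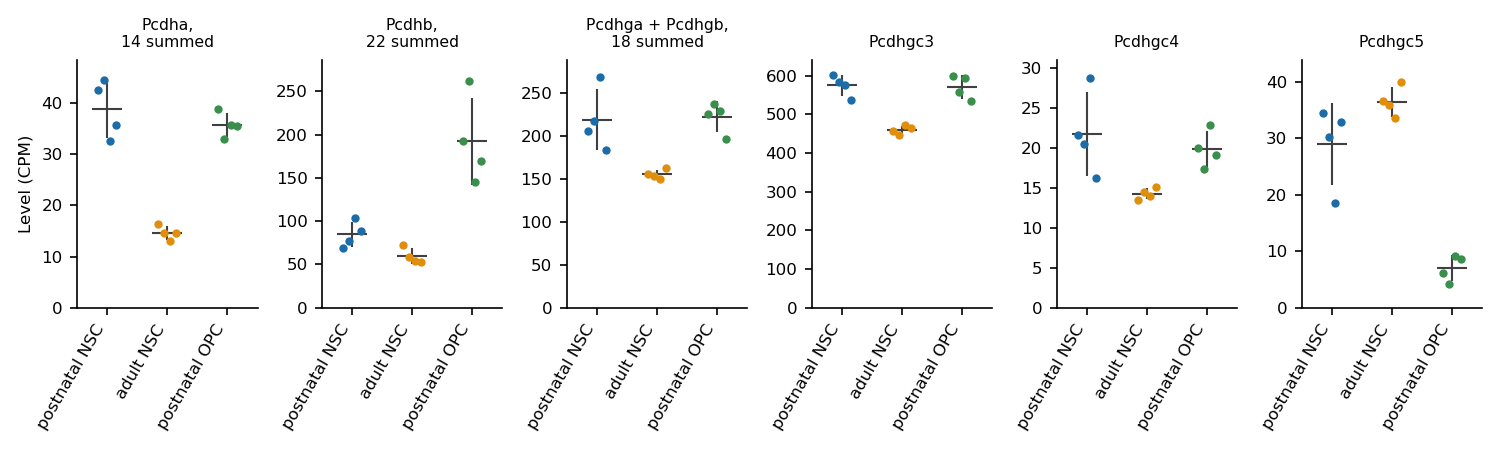
Level in each library, in CPM, of the Pcdha, Pcdhb and Pcdhga plus Pcdhgb genes summed by family and of the 3 C-type Pcdhg genes. Points are libraries, and the bars give the mean ± SD of 4 libraries. The Pcdhb sum is highest in OPC, Pcdha is lowest in adult NSC, and of the C-type genes Pcdhgc5 is lowest in OPC.

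The 3 C-type Pcdhg genes are not part of the first exon choice. Pcdhgc3 and Pcdhgc4 were lower in adult NSC than in both postnatal groups, while Pcdhgc5 was lower in OPC than in both neurosphere groups. Pcdhgc3, which restrains Wnt signalling and shapes cortical dendrites, was at 602, 585, 577 and 537 CPM in postnatal NSC 1 to 4, 458, 448, 471 and 465 in adult NSC 1 to 4, and 599, 558, 593 and 534 in postnatal OPC 1 to 4. It took 64.6% to 70.5% of the Pcdhg counts of every library. Adult NSC was below both postnatal groups by a narrow step (-0.32 ± 0.07, adjusted p = 0.00224 against postnatal NSC), while OPC and postnatal NSC overlapped (-0.01 ± 0.07, adjusted p = 0.915). Its level per length in postnatal NSC was 105 CPM per 1000 bases of exon. The same counts divided by only the exon bases of no other gene on its strand gave 170. No reads were recounted, so the higher value follows from the shorter length. Pcdhgc4, needed for the survival of interneurons, was at 21.8 ± 5.23 CPM in postnatal NSC, 14.3 ± 0.683 in adult NSC and 19.8 ± 2.32 in OPC. It fell in adult against postnatal NSC (-0.61 ± 0.16, adjusted p = 0.00625), and its rise in OPC against adult NSC (0.47 ± 0.16, adjusted p = 0.0239) was lost at 0.44 without adult NSC 1, 0.46 without adult NSC 3 and 0.40 without postnatal OPC 3. Pcdhgc5 was at 34.4, 30.2, 18.6 and 32.9 CPM in postnatal NSC 1 to 4, 36.6, 35.9, 33.6 and 40.03 in adult NSC 1 to 4, and 6.15, 4.199, 9.22 and 8.65 in postnatal OPC 1 to 4. All OPC libraries were at 9.22 CPM or less and all neurosphere libraries at 18.6 or more, with postnatal NSC 3 lowest among the latter. Its log2 fold change was -2.05 ± 0.24 (adjusted p = 4.78e-05) against postnatal NSC and -2.38 ± 0.25 (adjusted p = 9.66e-06) against adult NSC, a 5.20-fold fall. The ratio of Pcdhgc5 to Pcdhgc4 was 0.242 to 0.453 in the OPC libraries, 0.644 to 2.03 in postnatal NSC and 2.41 to 2.71 in adult NSC.

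Among alternative Pcdhg exons, Pcdhga4, Pcdhga9 and Pcdhgb7 had the deepest falls in adult NSC. Pcdhga4 was at 6.61, 7.07, 9.14 and 6.31 CPM in postnatal NSC 1 to 4, 3.77, 3.27, 3.32 and 3.02 in adult NSC 1 to 4, and 6.39, 8.68, 7.03 and 6.87 in postnatal OPC 1 to 4. Adult libraries were all at 3.77 CPM or less and the postnatal groups overlapped (-1.12 ± 0.17, adjusted p = 2.31e-04 in adult against postnatal NSC). Pcdhga9 was at 7.97, 8.18, 10.9 and 4.65 CPM in postnatal NSC 1 to 4, 4.58, 3.79, 3.26 and 3.82 in adult NSC 1 to 4, and 8.81, 7.66, 7.55 and 7.59 in postnatal OPC 1 to 4, with -1.03 ± 0.23 (adjusted p = 0.00241). Pcdhgb7 was at 17.3, 18.2, 23.7 and 9.52 CPM in postnatal NSC 1 to 4, 8.40, 7.38, 8.56 and 10.7 in adult NSC 1 to 4, and 15.01, 18.2, 15.8 and 14.2 in postnatal OPC 1 to 4, with -0.97 ± 0.23 (adjusted p = 0.00376). Postnatal NSC 4 was the lowest of its group in both, and for Pcdhgb7 it was below adult NSC 4. Pcdhga1, Pcdhga4 and Pcdhga2 had the largest rises of the family in OPC against adult NSC. Pcdhga1 was at 6.78, 6.39, 9.64 and 7.53 CPM in postnatal NSC 1 to 4, 4.26, 5.09, 3.60 and 5.24 in adult NSC 1 to 4, and 11.6, 10.7, 8.59 and 9.61 in postnatal OPC 1 to 4. Its adult libraries were below all others, with 1.15 ± 0.18 (adjusted p = 2.26e-04) in OPC against adult NSC. Against postnatal NSC it did not pass (0.42 ± 0.17, adjusted p = 0.0677), and passed without postnatal NSC 3 at 0.55 (adjusted p = 0.0159). Pcdhga2 was at 8.22, 8.81, 11.9 and 7.13 CPM in postnatal NSC 1 to 4, 5.13, 4.05, 5.57 and 6.72 in adult NSC 1 to 4, and 12.1, 12.8, 9.68 and 9.51 in postnatal OPC 1 to 4, with 1.04 ± 0.20 (adjusted p = 9.94e-04).

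A few Pcdhg genes went against their family. Pcdhga3 was at 13.3, 10.8, 13.7 and 11.7 CPM in postnatal NSC 1 to 4, 12.2, 12.9, 11.1 and 11.9 in adult NSC 1 to 4, and 20.3, 17.9, 17.8 and 15.8 in postnatal OPC 1 to 4. All OPC libraries were above the others. Its rise in OPC against postnatal NSC (0.53 ± 0.11, adjusted p = 0.00259) was the 1 such call among Pcdhg genes, and adult against postnatal NSC did not pass (-0.04 ± 0.12, adjusted p = 0.773). Pcdhga11 was at 22.4, 26.1, 32.4 and 21.2 CPM in postnatal NSC 1 to 4, 13.1, 18.03, 19.3 and 21.96 in adult NSC 1 to 4, and 18.7, 14.4, 21.1 and 17.1 in postnatal OPC 1 to 4. Postnatal NSC libraries lay just above those of OPC, and adult NSC overlapped both. Its fall in OPC (-0.52 ± 0.18, adjusted p = 0.0339) was lost at -0.54 to -0.38 with any one left out of postnatal NSC 2 or 3, or OPC 2 or 4. Its fall in adult NSC (-0.50 ± 0.18, adjusted p = 0.0349) was lost at -0.53 to -0.36 with any one left out of postnatal NSC 2 or 3, or adult NSC 1, 2 or 3. Without postnatal NSC 3 and OPC 2 both falls were lost, at -0.30 (adjusted p = 0.152) in OPC and -0.37 (adjusted p = 0.0571) in adult NSC. Pcdhga5 was at 6.33, 5.98, 6.31 and 6.61 CPM in postnatal NSC 1 to 4, 9.55, 7.64, 7.88 and 9.25 in adult NSC 1 to 4, and 6.44, 8.19, 4.44 and 3.99 in postnatal OPC 1 to 4. Adult and OPC libraries overlapped, and the fall in OPC against adult NSC (-0.57 ± 0.21, adjusted p = 0.037) was lost at -0.61 to -0.43 with any one left out of adult NSC 1, 3 or 4, or OPC 3 or 4.

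Catenins tie classical cadherins to actin. In OPC against postnatal NSC, 4 of 11 tested were higher (Ctnna2, Ctnnb1, Ctnnd1, Ctnnd2) and 3 lower (Ctnna1, Jup, Vcl), with a median of 0.01. Over all genes 22.4% were called higher and 22.7% lower in that comparison, so the share of lower catenins was near the background. The alpha-catenins moved apart: neural Ctnna2 was at 56.2 ± 28.99 CPM in postnatal NSC, 25.7 ± 1.84 in adult NSC and 140.0 ± 36.3 in OPC, a rise of 1.32 ± 0.29 (adjusted p = 0.00292), while the widely used Ctnna1 was at 217 ± 7.10 CPM in postnatal NSC, 259.7 ± 2.69 in adult NSC and 155 ± 16.1 in OPC, a change of -0.49 ± 0.08 (adjusted p = 3.75e-04). Ctnnb1, which encodes beta-catenin, rose by 0.39 ± 0.06 (adjusted p = 3.93e-04) and Ctnnd2, the delta-catenin of neurons, by 0.55 ± 0.08 (adjusted p = 1.28e-04). Jup, which encodes plakoglobin, fell to 7.29 ± 3.12 from 16.4 ± 3.52 CPM, and Vcl, which encodes vinculin, to 56.6 ± 18.5 from 106 ± 18.6. In adult against postnatal NSC, 3 were higher and 5 lower, beside 25.2% and 27.9% of all genes. Among the lower were Arvcf (-1.86 ± 0.26, adjusted p = 1.77e-04) and Ctnna2 (-1.13 ± 0.29, adjusted p = 0.0067). In OPC against adult NSC, 5 were higher and 4 lower, beside 26.3% and 24.7% of all genes.

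Of 10 tested WAVE complex genes, whose products meet delta-2 tails, 5 were higher and 3 lower in OPC against postnatal NSC (22.4% and 22.7% of all genes), with a median of 0.31. Among the WAVE proteins themselves Wasf3 was higher (0.80 ± 0.09, adjusted p = 3.47e-05) and Wasf2 lower (-0.79 ± 0.08, adjusted p = 1.90e-05), while Wasf1 did not pass (0.36 ± 0.16, adjusted p = 0.0879). The partner Cyfip1 was lower (-0.40 ± 0.07, adjusted p = 5.06e-04), and Abi2 was higher (0.57 ± 0.15, adjusted p = 0.00724). In adult against postnatal NSC, 2 were higher (Nckap1, Abi2) and 3 lower (Wasf1, Wasf3, Cyfip2), near the 25.2% and 27.9% of all genes, with Cyfip2 at 213 ± 131 CPM in postnatal NSC, 49.4 ± 1.37 in adult NSC and 186 ± 63.9 in OPC.

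Regulators of clustered exon choice were mostly higher in adult NSC. Of 16 tested, 13 were higher and 2 lower (Dnmt3b, Wiz) than in postnatal NSC, where 25.2% and 27.9% of all genes were called, with a median log2 fold change of 0.45, against -0.03 over all genes. In the same comparison 32 of 50 clustered members were lower and none was higher. Ctcf, the insulator protein that loops enhancers to chosen first exons, was at 139.8 ± 13.1 CPM in postnatal NSC, 173 ± 7.33 in adult NSC and 179.8 ± 12.5 in OPC, with 0.31 ± 0.08 (adjusted p = 0.00745). The cohesin subunit genes Stag2 and Smc3 rose by 0.87 ± 0.10 (adjusted p = 5.40e-05) and 0.67 ± 0.09 (adjusted p = 1.41e-04), and Smchd1, which silences clustered protocadherins, by 0.84 ± 0.15 (adjusted p = 8.49e-04). Dnmt3b, which methylates their promoters, fell from 5.45 ± 0.414 to 3.46 ± 0.260 CPM (-0.66 ± 0.15, adjusted p = 0.0031). In OPC against postnatal NSC, 9 were higher and 1 lower (Dnmt3b), beside 22.4% and 22.7% of all genes. In OPC against adult NSC none was higher and 3 were lower (Stag2, Pds5a, Dnmt3a), beside 26.3% and 24.7%.

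Cadherin repressors and shedding proteases gave 4 higher and 3 lower of 10 tested in OPC against postnatal NSC, where 22.4% and 22.7% of all genes were called. Zeb1, a repressor of Cdh1, was at 404 ± 76.7 CPM in postnatal NSC, 579 ± 27.1 in adult NSC and 640.4 ± 95.6 in OPC and rose (0.67 ± 0.14, adjusted p = 0.0019). Adam10, which sheds N-cadherin, rose as well (0.40 ± 0.09, adjusted p = 0.00397), while the membrane protease Mmp14 fell by 2.19 ± 0.14 (adjusted p = 9.72e-07) on the log2 scale. Of the 3 lower genes, 2 fell by at least 1 on that scale. In adult against postnatal NSC this list gave 4 higher and 2 lower, with a lowest value of -3.15, beside 25.2% and 27.9% of all genes. For OPC against adult NSC it gave 3 higher and 3 lower, beside 26.3% and 24.7%. Of 13 tested relatives outside the rule, 2 were higher and 5 lower in OPC against postnatal NSC, beside the same 22.4% and 22.7%. The giant cadherins Fat1 and Fat4 and the planar polarity cadherins Celsr1 and Celsr2 were among the lower, at -0.60, -0.80, -2.25 and -0.75, and the fifth was the desmosomal Dsc2 (-1.10). The calsyntenins Clstn2 and Clstn3 were higher, at 1.21 and 1.34. In adult against postnatal NSC, 4 of the relatives were higher (Fat1, Fat3, Dchs1, Clstn2) and 3 lower, beside 25.2% and 27.9% of all genes. The lowest value of the list there was -2.26. Dchs1, the binding partner of Fat4, was at 191 ± 23.2 CPM in postnatal NSC, 403 ± 56.2 in adult NSC and 159 ± 23.8 in OPC (1.08 ± 0.13, adjusted p = 6.84e-05 in adult against postnatal NSC). In OPC against adult NSC, 2 relatives were higher and 6 lower, beside 26.3% and 24.7% of all genes.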

How the data were processed

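RNA-seq of 12 cultures was described by a deposited table of raw gene counts. Per the labels' protocols a stranded mRNA kit was used, and per the submitters' processing notes the authors used FastQC, STAR, GRCm38 and featureCounts 1.22.2. Their settings for strand and for reads on several genes are not given in the sources used here. Identifiers were matched to GENCODE M21 (55141 of 55401). Pcdhgb8, which fits the pattern but is not protein-coding in that annotation, was left out, and 2 gene models carry the symbol Pcdha11.

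Groups followed the labels. Counts were fitted over all 12 libraries with edgeR 4.0.16 in R 4.3.3 (filterByExpr with a minimum count of 10 and total of 15, TMM, quasi-likelihood test, Benjamini-Hochberg adjustment over 16135 genes, threshold 0.05). The script was tested on simulated data. P-values are for a difference between group means, judged against the spread between these libraries. Alternatives were DESeq2 1.42.0, other filters, subsets, a replicate block, a Y-linked covariate and equal depth.

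The members and gene lists were chosen with earlier results of these data known. Members described in every library were 13 chosen by role, unclustered members called with a change of at least 1 (log2) and 5 CPM, and up to 3 called rises and 3 falls per clustered family and comparison with at least 1 CPM. Others are named where they go against their class, depend on a library or were tallied in a count of few. Promoter windows came from RefSeq (GRCm38.p6).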

Additional observations from a re-analysis of the deposited data

Results flagged for a closer look

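Among 106 groups of 4 libraries examined over the 40 members named by rule, 7 held a library far from the others of its group, where chance alone flags about 1 in 20 groups. For Cdh22, postnatal NSC 3 was at 10.3 CPM against 32.2 to 34.3 in the other libraries of its group. Also for Cdh22, postnatal OPC 2 was at 9.46 CPM against 18.8 to 20.4. Cdh13 was at 70.0 CPM in postnatal NSC 3 against 119 to 126. These are the libraries that were low in G1/S genes, whose part in the values was not tested.

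The 4 other cases were in low-level clustered members. Pcdhb9 was at 2.02 CPM in postnatal NSC 2 against 1.32 to 1.40, and Pcdhb11 was at 0.563 CPM in adult NSC 3 against 1.75 to 1.97. Pcdha12 was at 1.69 CPM in adult NSC 1 against 1.04 to 1.13. Pcdhga9 was at 8.81 CPM in postnatal OPC 1 against 7.55 to 7.66.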

How the results depend on the processing

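Over 21 alternatives, the number of members called was 32 to 41 in OPC against postnatal NSC (37 as reported), 37 to 48 in adult against postnatal NSC (44), and 58 to 67 in OPC against adult NSC (61). The members called lower in OPC than in postnatal NSC, 4 as reported, were 7 without postnatal NSC 3 and 3 to 7 over all single libraries left out. They were also 7 without postnatal NSC 3 and OPC 2 together. The part of those libraries' state in this was not tested. Of the called members, 31 of 37, 34 of 44 and 56 of 61 kept their call in every alternative in which they were tested, in the same order of comparisons, and no called value changed sign. Cdh1, Pcdha5, Pcdha7 and Pcdhb13 were tested in 18 to 20 of the 21. Replicate numbers did not pair the libraries: same-numbered libraries correlated at -0.36 to 0.32 (median -0.01), with 3 of 12 pairs over 0.1. With the replicate number as a block, 37, 41 and 61 members were called, and 7 of 216 calls differed. Libraries of adult NSC and OPC were shallower than those of postnatal NSC, and members under about 1 CPM rest on few counts in them.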
